A study of Mus musculus with 8 samples.

Results

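The clustered miRNAs miR-143 and miR-145 were followed with 3 real-time PCR assays in cells of the mouse renal artery sorted as CD34+/CD105-. The assays were chosen by name, as mmu-miR-145, mmu-miR-143 and hsa-miR-143, out of 750 miRNA assays run on each sample. The cells came from 4 mice whose renal arteries had been clamped on both sides and reperfused (ischemia/reperfusion) and from 4 mice after sham surgery. The question was which miRNAs of these cells respond to renal ischemia/reperfusion. CD34 is carried by endothelial and progenitor cells, while CD105, or endoglin, is carried by endothelial and mesenchymal stromal cells. The labels give no transgene or deletion, and strain, age, ischemia time and reperfusion time were not given in the sources used here. Each labelled mouse was taken as 1 biological replicate.

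miR-143 and miR-145 are processed from a pair of neighbouring hairpins that are made from a common transcript. In the vessel wall they are known as miRNAs of differentiated smooth muscle cells, where serum response factor and its coactivator myocardin switch them on and where they favour the contractile over the proliferative state. Among their known targets are KLF4, KLF5 and ELK1, transcription regulators that oppose the contractile programme. In the RefSeq annotation of GRCm38.p6 the 2 genes, Mir143 and Mir145a, are neighbours with 0 other genes starting between them, and both lie within the long noncoding RNA gene Carmn.

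The miRNAs that the results below set beside miR-145 are shown first, so that their identity is plain. They are the most similar in profile, the endothelial miR-126-3p, and members of lists linked to the proliferative or the contractile state of smooth muscle. The sequences are the RefSeq mature miRNAs of GRCm38.p6, written 5′ to 3′, with the seed (bases 2 to 8, which pair with targets) in capitals. RefSeq sequences were matched for 7 of the 12 miRNAs looked up, with miR-143, miR-145, miR-320, miR-30b and miR-2134 named only.
miR-191-5p: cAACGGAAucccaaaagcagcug
miR-199a-3p: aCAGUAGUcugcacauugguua
miR-126a-3p: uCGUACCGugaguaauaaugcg
miR-222-3p: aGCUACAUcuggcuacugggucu
miR-21a-5p: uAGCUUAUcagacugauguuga
miR-195a-5p: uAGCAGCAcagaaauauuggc
let-7d-5p: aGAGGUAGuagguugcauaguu
The 7 sequences carry 7 distinct seeds, so none of those shown shares a seed with another.

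The measured value is the threshold cycle (Ct), the earlier the more RNA there is, and an assay was counted as detected below Ct 35. The 8 samples were unequal in overall signal. In number, the assays detected were 98, 82, 91 and 88 in ischemia/reperfusion mice 1 to 4, against 127, 75, 142 and 163 in sham mice 1 to 4. Sham mouse 2 stood apart from the other sham mice, with the fewest detected assays of all samples, and was nearer in signal to the ischemia/reperfusion mice. Over the miRNAs detected in every sample its mean Ct was 28.4. That mean was 28.0, 28.1, 27.7 and 28.1 in ischemia/reperfusion mice 1 to 4, against 26.2, 25.8 and 24.8 in sham mice 1, 3 and 4. The main differences are therefore given with and without sham mouse 2. With it left out, every sham mouse had more detected assays and an earlier mean Ct than every ischemia/reperfusion mouse. Group and overall signal then divide the mice in the same way, and the part of signal in those differences was not tested. The levels below are minus delta Ct, the deposited reference Ct of the sample and card minus the Ct of the assay, so that a higher value means more RNA and 1 unit is a doubling if PCR is fully efficient.

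miR-145 was detected in all 8 mice, as were 7.2% of the 750 assays, and had a lower mean level after ischemia/reperfusion than after sham surgery, but the difference did not pass the threshold. Its Ct was 32.9, 32.9, 32.5 and 34.3 in ischemia/reperfusion mice 1 to 4, against 29.1, 34.1, 28.6 and 26.7 in sham mice 1 to 4. The 4 ischemia/reperfusion mice lay close together and late, 3 sham mice were several cycles earlier, and sham mouse 2 lay among the ischemia/reperfusion mice. Before any normalization, the mean Ct was 33.1 ± 0.802 after ischemia/reperfusion and 29.6 ± 3.14 after sham surgery (SD, n = 4 per group).

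**Figure D1:**
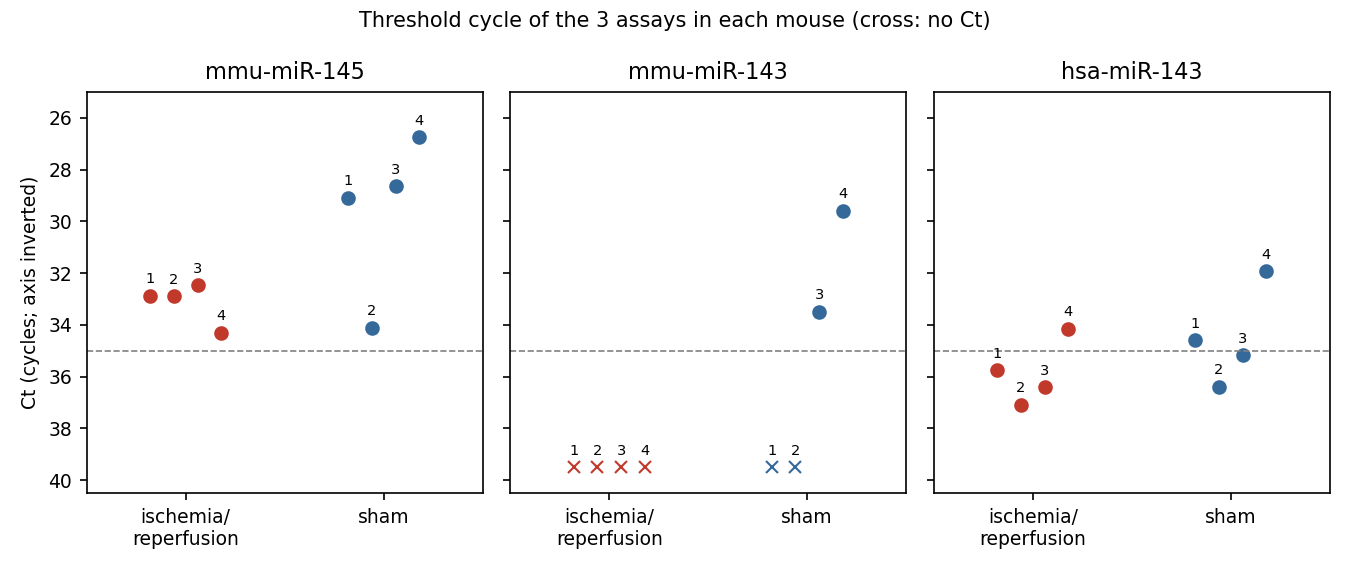
Ct in cycles on an inverted axis for each of the 3 assays, with ischemia/reperfusion mice left of sham mice, each point a mouse labelled with its number, crosses wells without a Ct, and the dashed line Ct 35. miR-145 lies above the line in all 8 mice, mmu-miR-143 has a Ct only in sham mice 3 and 4, and hsa-miR-143 lies around the line in both groups.

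Against the deposited reference, the level of miR-145 was -11.85, -10.51, -11.94 and -12.62 in ischemia/reperfusion mice 1 to 4, against -8.43, -11.66, -9.65 and -8.81 in sham mice 1 to 4. The group ranges overlapped through sham mouse 2, which was lower than ischemia/reperfusion mouse 2. The mean level was -11.73 ± 0.88 after ischemia/reperfusion and -9.64 ± 1.44 after sham surgery (SD, n = 4 per group). This gives a log2 difference of -2.09 ± 0.84 (SE; 95% interval -4.00 to -0.19), a fold of 0.234. By limma across the 72 miRNAs detected in at least 3 mice of each group, the unadjusted p was 0.0347 and the Benjamini-Hochberg adjusted p was 0.278. The exact two-sided permutation test gave p = 0.0571 (the smallest that 4 against 4 mice allow is 0.0286). The authors' deposited table gives the same fold of 0.234. Fewer cells of a type that carries miR-145 and less miR-145 per cell cannot be told apart in these bulk samples. Smooth muscle cells mostly lack CD34, and how many of them the sorted CD34+ cells held was not tested.

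Read against all tested miRNAs, miR-145 was one of a larger lower-shifted set. Of the 72 miRNAs, 0% passed the adjusted threshold. At an unadjusted limma p under 0.05, 13.9% were lower after ischemia/reperfusion, and miR-145 stood 9th of 72 in order of p. In 29.2% of them, as in miR-145, all ischemia/reperfusion mice lay below the sham mean, and 6.94% had ischemia/reperfusion values that were all below the sham values, which miR-145 did not. Over the 72 miRNAs the median log2 difference was -0.80, so miR-145 lay 1.29 log2 units below the centre of the tested miRNAs.

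**Figure D2:**
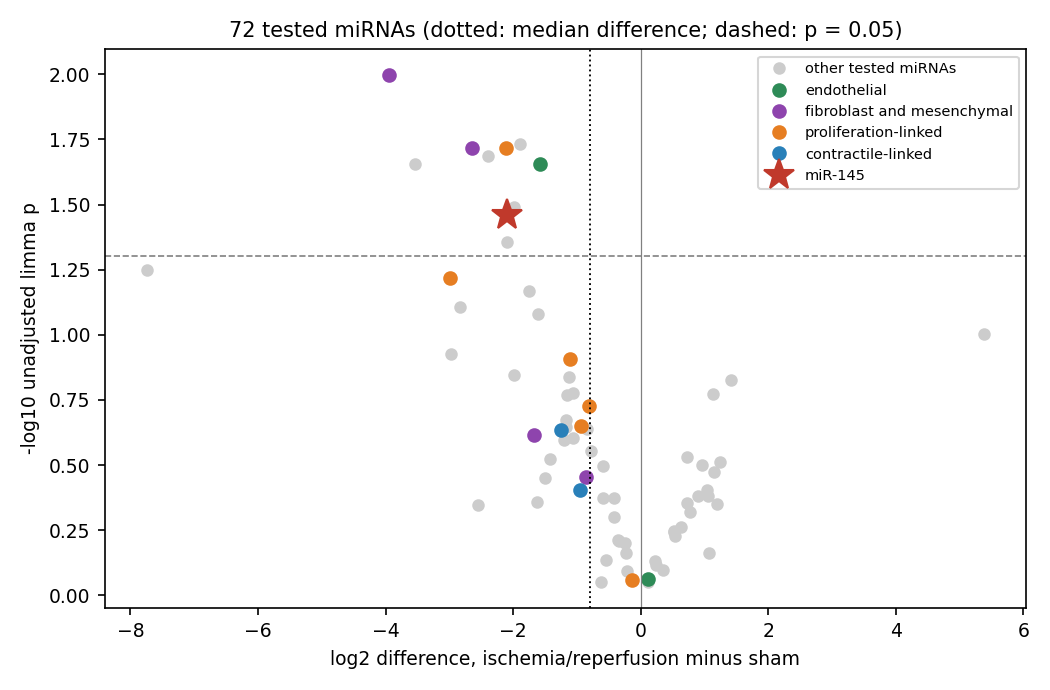
Log2 difference, ischemia/reperfusion minus sham (x axis), against minus log10 of the unadjusted limma p-value (y axis) for the 72 tested miRNAs, coloured by list, with miR-145 as a star. miR-145 lies at -2.09, left of the dotted median at -0.80 and above the dashed line that marks 0.05, beside other lower miRNAs.

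The reference Ct moved with the groups as well, and its part in the miR-145 result was not tested. On the card that holds miR-145 it was 21.0, 22.4, 20.5 and 21.7 in ischemia/reperfusion mice 1 to 4, against 20.7, 22.4, 19.0 and 17.9 in sham mice 1 to 4. The miR-145 level was therefore also set against the mean of the 54 miRNAs found in every sample. On that scale it was -4.84, -4.75, -4.79 and -6.17 in ischemia/reperfusion mice 1 to 4, against -2.90, -5.66, -2.89 and -1.94 in sham mice 1 to 4. The order of the mice was much as before, with 3 sham mice above all ischemia/reperfusion mice and sham mouse 2 among them. The log2 difference was -1.79 ± 0.84 (SE, n = 4 per group), with a limma adjusted p of 0.377, and it lay 1.55 units below the median of the 72 miRNAs, which was -0.24 on that scale. Against the mean of the 34 miRNAs of the same card detected in all samples, a reference chosen after seeing the data, the difference was -1.44 ± 0.77 (SE), 1.12 below a median of -0.31. With this same-card reference the 4 ischemia/reperfusion mice lay within 0.657 log2 units of each other, from -4.80 to -4.14, against 3.34 units among the sham mice, from -5.18 to -1.84. Most of that sham range came from sham mouse 2, at -5.18, while sham mice 1, 3 and 4 were at -2.38, -2.44 and -1.84. The contrast in spread was smaller on the other scales. Ischemia/reperfusion and sham ranges were 2.11 and 3.23 units by minus delta Ct, and 1.42 and 3.73 units on the 54-miRNA scale.

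**Figure D3:**
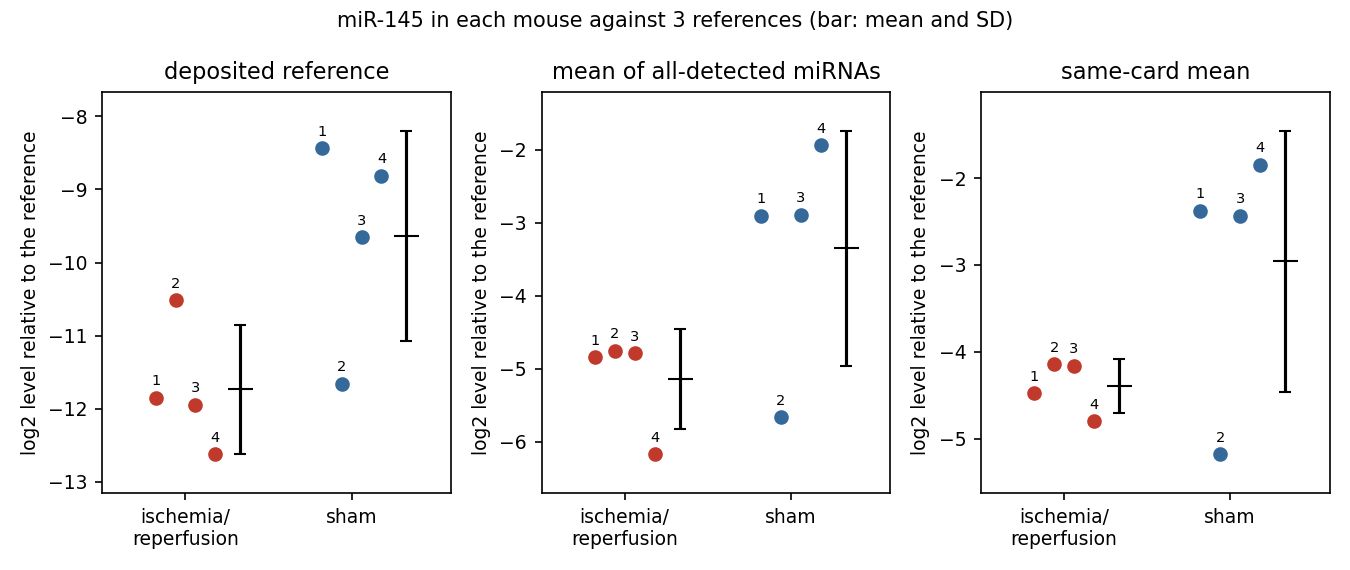
miR-145 level (log2) in each mouse against the deposited reference, the mean of the 54 miRNAs found in every sample and the mean of the 34 of the same card, ischemia/reperfusion left of sham, points numbered by mouse, bars the mean and SD of 4 mice. In each panel sham mice 1, 3 and 4 lie above all ischemia/reperfusion mice, and sham mouse 2 lies among or below them.

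Sham mouse 2 had the most effect of any mouse on the size of the miR-145 difference. Without it, the log2 difference was -2.77 ± 0.68 (SE; 3 sham and 4 ischemia/reperfusion mice). The unadjusted limma p was 0.00369 and the adjusted limma p was 0.129, while the exact permutation p on this deposited reference was 0.0571. Without sham mouse 2 the raw Ct difference was 4.97 cycles, against 3.48 with it. The log2 difference was then -2.56 against the mean of the 54 miRNAs and -2.18 against the same-card mean (exact permutation p = 0.0286 for each, the smallest that 4 against 3 mice allow). The group ranges no longer overlapped on any of these scales, which leaving out the lowest sham value favours by construction. The sham mice that remained also all had more detected assays than any ischemia/reperfusion mouse. Leaving out each mouse in turn gave log2 differences between -2.77 and -1.69, with limma adjusted p between 0.129 and 0.708, so no mouse left out brought miR-145 past the threshold.

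**Figure D4:**
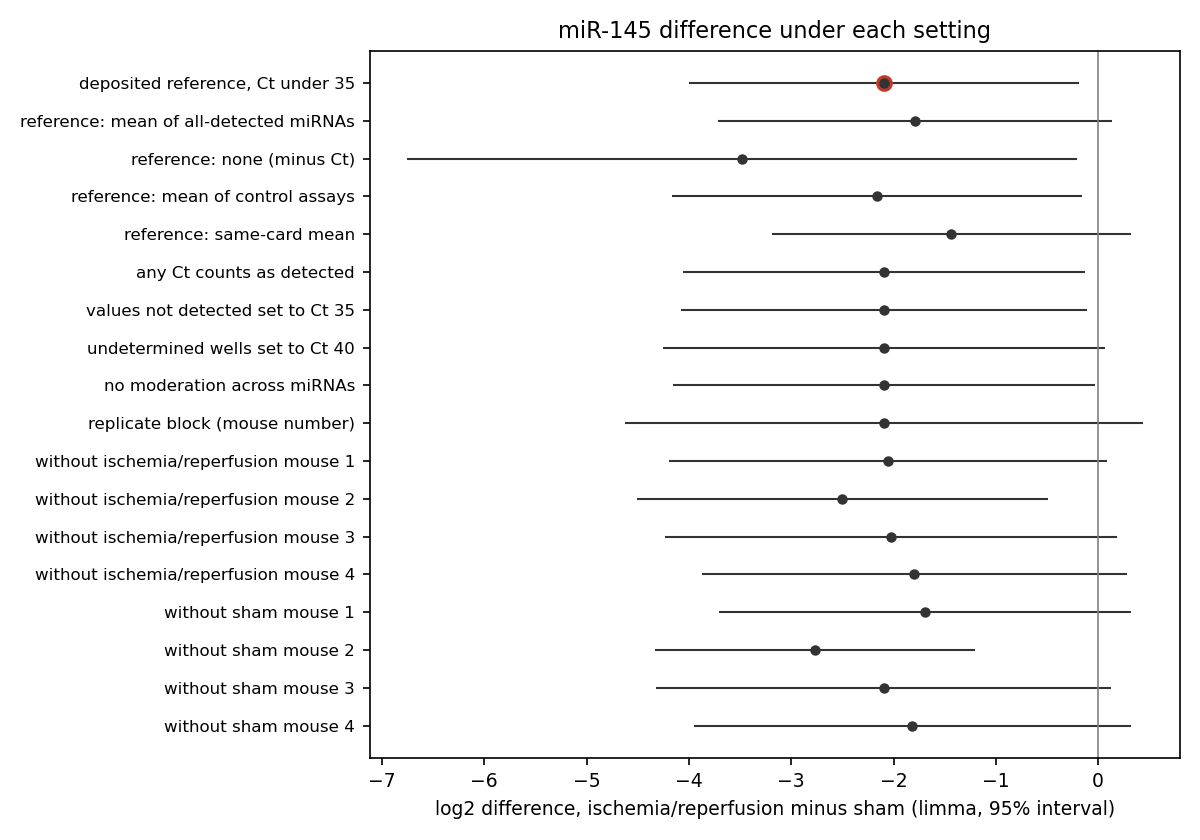
Log2 difference of miR-145, ischemia/reperfusion minus sham, with its 95% limma interval under the deposited reference (top, red) and each other setting, the vertical line marking 0. All points lie below 0, between -3.48 without normalization and -1.44 with the same-card mean, and many of the intervals cross 0.

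Ranks within each mouse use no reference Ct, but they mix the 2 cards, so a shift between the cards can move them. Ordered by Ct among the 54 miRNAs detected in all samples, with rank 1 the earliest, miR-145 was at rank 50, 51, 50 and 53 in ischemia/reperfusion mice 1 to 4, against rank 45, 54, 42 and 39 in sham mice 1 to 4. It was a late assay in every mouse, and in sham mouse 2 it was the last of all. The ischemia/reperfusion ranks were all later than the sham ranks for 5.56% of these miRNAs, and miR-145 was not among them. Of the 33 other same-card miRNAs detected in all samples, 31 had a less negative change than miR-145. The 2 with a more negative change were miR-199a-3p and miR-222.

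miR-143 was near or beyond the detection limit in most mice, by both of its assays. The mmu-miR-143 assay, on the same card as miR-145, had a Ct in 0 of 4 ischemia/reperfusion mice and in 2 of 4 sham mice, at Ct 33.5 in sham mouse 3 and Ct 29.6 in sham mouse 4. Those were the mice with the earliest miR-145 Ct. Fisher's exact test gave p = 0.429, and 4 against 4 mice can pass 0.05 only when detection is complete in 1 group and absent in the other. Among all 750 assays, 2.8% were detected in exactly 2 sham mice and no ischemia/reperfusion mouse, and 1.87%, mmu-miR-143 included, in exactly sham mice 3 and 4, the samples with the most detected assays. The assay has no level in the ischemia/reperfusion group and no difference was computed. In sham mice 3 and 4 its level was -14.50 and -11.66.

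The hsa-miR-143 assay, on the other card, gave a Ct in all 8 mice, but below 35 in 1 of 4 ischemia/reperfusion and 2 of 4 sham mice (Fisher's exact p = 1). Its Ct was 35.8, 37.1, 36.4 and 34.1 in ischemia/reperfusion mice 1 to 4, against 34.6, 36.4, 35.2 and 31.9 in sham mice 1 to 4. The groups overlapped widely, and the earliest wells of each group were those of mouse 4. With all 8 wells counted, its level was -14.29, -14.45, -14.80 and -12.24 in ischemia/reperfusion mice 1 to 4, against -13.14, -13.35, -14.96 and -13.11 in sham mice 1 to 4. The mean level was -13.94 ± 1.16 after ischemia/reperfusion and -13.64 ± 0.88 after sham surgery (SD, n = 4 per group). The log2 difference was -0.30 ± 0.78 (limma SE with any Ct counted as detected; 95% interval -2.09 to 1.49; adjusted p = 0.817 over 98 miRNAs). The interval runs on both sides of 0, and its lower end is close to the miR-145 difference of -2.09. For this assay the authors' deposited table gives 0.811 as the fold, from the same wells. The sign of the difference depended on the reference, with 0.37 against the all-sample miRNA mean and -1.33 without normalization.

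The assays for miR-143 did not rank the mice alike. In sham mice 3 and 4, where both gave a Ct, hsa-miR-143 came 1.67 and 2.33 cycles after mmu-miR-143. In sham mouse 1 and ischemia/reperfusion mouse 4, hsa-miR-143 was detected at Ct 34.6 and 34.1, earlier than in sham mouse 3, while mmu-miR-143 gave no Ct. The probe sequences of the assays were not given in the sources used here. An assay for the passenger strand of miR-145, mmu-miR-145#, had no Ct in any of the 8 mice.

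Whether miR-143 and miR-145 moved together was asked within each mouse, as the level of hsa-miR-143 minus the level of miR-145. The assays lie on different cards and can differ in efficiency, so the value in 1 mouse is no ratio of abundance. Only its change between mice can be read, and that still depends on the separate references of the cards. With any Ct counted, the difference between groups was 2.16 from raw Ct, against 1.79 from the levels. Below Ct 35 for both, the values were 0.39 in ischemia/reperfusion mouse 4, against -4.71 in sham mouse 1 and -4.30 in sham mouse 4, too few for a test. With any Ct counted, the values were -2.44, -3.94, -2.85 and 0.39 in ischemia/reperfusion mice 1 to 4, against -4.71, -1.69, -5.30 and -4.30 in sham mice 1 to 4. Ischemia/reperfusion mouse 4 was the highest of all, and sham mouse 2 lay above 3 ischemia/reperfusion mice. The mean was -2.21 ± 1.84 after ischemia/reperfusion and -4.00 ± 1.59 after sham surgery (SD, n = 4 per group). The difference of 1.79 ± 1.22 log2 units (SE) did not pass (exact two-sided permutation p = 0.2), so a different response of the 2 cluster members was not detectable. Without ischemia/reperfusion mouse 4 the difference was 0.92, and without sham mouse 2 it was 2.56 (exact permutation p = 0.4 and 0.0571).

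**Figure D5:**
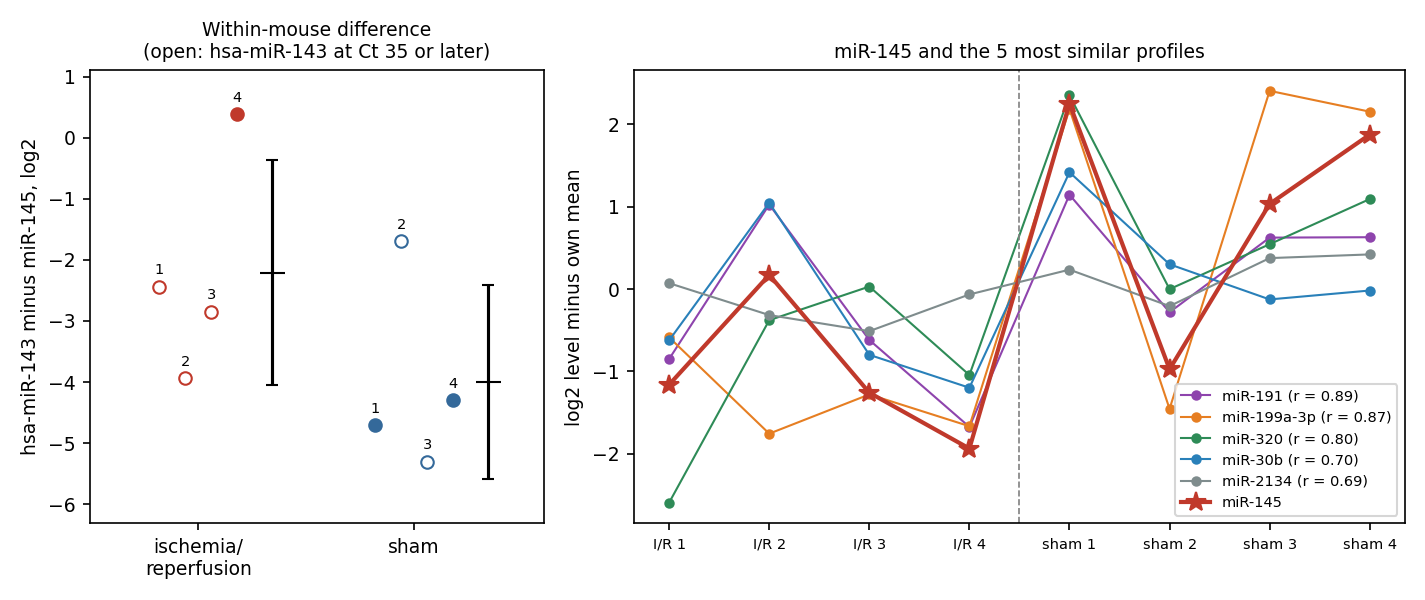
Left, the level of hsa-miR-143 minus that of miR-145 (log2) in each numbered mouse, ischemia/reperfusion left of sham, open points where hsa-miR-143 was at Ct 35 or later, bars the mean and SD of 4 mice. Right, the level of miR-145 and of the 5 miRNAs with the most similar profile in each mouse (I/R, ischemia/reperfusion), each minus its own mean over the 8 mice, with lines only joining points of 1 miRNA. On the left the groups overlap; on the right miR-199a-3p and miR-145 are both low in sham mouse 2 and high in the other sham mice.

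The 5 miRNAs whose level was most like that of miR-145 over the 8 mice were taken from the 53 others detected in all samples. They were miR-191, an abundant miRNA of many cell types (Pearson r = 0.89), miR-199a-3p, a miRNA of fibroblasts and other mesenchymal cells (r = 0.87), miR-320 (r = 0.80), miR-30b (r = 0.70) and miR-2134 (r = 0.69). The median over the 53 miRNAs was 0.42 and the range was -0.80 to 0.89. These are descriptions over 8 points that share the sample's RNA input, and all but miR-2134 also share the card and its reference. With group means removed, r was 0.84 for miR-191, 0.72 for miR-199a-3p, 0.58 for miR-320, 0.60 for miR-30b and 0.42 for miR-2134. Against the mean of the miRNAs found in every sample, r was 0.88 for miR-191 and 0.89 for miR-199a-3p, but 0.087 for miR-2134. hsa-miR-143, with any Ct counted, had r = -0.016 with miR-145.

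In 4 of the 5, miR-30b being the exception, sham mouse 2 had the lowest sham level, as it did for miR-145. The gap was widest in miR-199a-3p. Its level was -10.66, -11.83, -11.36 and -11.74 in ischemia/reperfusion mice 1 to 4, against -7.89, -11.53, -7.67 and -7.92 in sham mice 1 to 4. It was low in the ischemia/reperfusion mice and in sham mouse 2, and high in the other sham mice. The log2 difference was -2.65 ± 0.92 (SE, n = 4 per group; limma adjusted p = 0.228). Without sham mouse 2 it was -3.57 ± 0.54 (SE), and miR-199a-3p then passed the threshold (limma adjusted p = 0.0130). The value left out was by far its lowest sham value, which favours a larger difference and a smaller SE by construction. Group and overall signal also divide the remaining mice in the same way. miR-191 had a log2 difference of -1.06 ± 0.70 (SE), with a limma adjusted p of 0.510.

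miR-145 was then set against single miRNAs of the same card within each mouse, where the reference cancels. The 4 partners were chosen after their values were seen: both arms of the endothelial miR-126, the mesenchymal miR-199a-3p, and the broadly expressed miR-24. Adjustment over the 4 relations does not cover that choice. miR-199a-3p was also among the miRNAs most like miR-145, which favours a small difference by construction. Relative to miR-126-3p, miR-145 was at -5.75, -5.29, -5.83 and -6.87 in ischemia/reperfusion mice 1 to 4, against -4.11, -8.38, -4.68 and -4.56 in sham mice 1 to 4. Sham mouse 2 was the lowest of all 8, and the other sham mice were the highest. The mean difference between groups was -0.51 ± 1.05 relative to miR-126-3p, -2.20 ± 1.04 relative to miR-126-5p, 0.55 ± 0.69 relative to miR-199a-3p and -1.28 ± 0.89 relative to miR-24 (SE, n = 4 per group). Exact permutation tests gave p = 0.686, 0.114, 0.514 and 0.171 in that order, and the lowest Benjamini-Hochberg adjusted p over the 4 relations was 0.343. None passed with all 8 mice. Without sham mouse 2 the difference was -1.49 relative to miR-126-3p, -3.02 relative to miR-126-5p, 0.80 relative to miR-199a-3p and -2.07 relative to miR-24. The exact permutation p was then 0.0571, 0.0286, 0.457 and 0.0286 in that order, and the lowest Benjamini-Hochberg adjusted p over the 4 relations was 0.0571. The value left out was the lowest sham value relative to miR-126-3p, miR-126-5p and miR-24, but the highest sham value relative to miR-199a-3p.

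The other miRNAs linked to smooth muscle state gave few tested members. Of the list linked to the contractile or quiescent state, 5 of 8 assays were detected in at least 1 mouse and 2 were tested. Over all 750 miRNA assays, 187 were detected in at least 1 mouse and 72 were tested. Both had lower mean levels after ischemia/reperfusion, beside 68.1% of all tested miRNAs. They were miR-195, which restrains smooth muscle proliferation, at -1.24 ± 0.97, and let-7d, a let-7 family member, at -0.95 ± 1.05 (log2 difference, SE). miR-1 and miR-133b, muscle miRNAs of that list, were detected in 0 of 8 mice, and miR-133a and miR-34a in 1 sham mouse each.

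Of the list linked to the proliferative state of smooth muscle, 9 of 9 assays were detected in at least 1 mouse, beside 187 of all 750. Of the 9, 6 were tested. All 6 had lower mean levels after ischemia/reperfusion, beside 68.1% of all tested miRNAs, with a median log2 difference of -1.02 beside -0.80 for all tested. Of these, miR-222, which promotes smooth muscle growth, was at -2.12 ± 0.74 (SE, n = 4 per group; limma adjusted p = 0.228), and miR-21, also growth-promoting, at -2.99 ± 1.33 (SE, 3 mice per group; limma adjusted p = 0.362). miR-26a was at -1.11 ± 0.65 and miR-24 at -0.81 ± 0.57 (log2 difference, SE). These 4 had the smallest limma p of the 6, while miR-31, with the largest, was at -0.14 ± 0.84 (SE). No member of either list passed the adjusted threshold. miR-145, linked to the contractile state, and miR-222, linked to the proliferative one, thus had log2 differences of like size and the same sign, against the same card reference.

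Markers of other cell types are given beside these results, and their part in the miR-145 difference was not tested. Endothelial miR-126-3p and miR-126-5p were both detected in all 8 mice, as were 7.2% of the 750 assays. The summed level of both arms, as log2 of the sum of linear levels, was -5.79 to -4.72 after ischemia/reperfusion, against -4.73 to -3.14 after sham surgery. miR-126-3p had a log2 difference of -1.59 ± 0.57 (SE; limma adjusted p = 0.228) and miR-126-5p of 0.11 ± 0.60. Of the fibroblast and mesenchymal markers, 5 of 6 assays were detected in at least 1 mouse, beside 187 of all 750, and miR-199a-5p in none. The 4 tested assays, 2 of them for miR-214, all had lower mean levels after ischemia/reperfusion, beside 68.1% of all tested miRNAs. Their median log2 difference was -2.16, beside -0.80 for all tested, and no adjusted p was under 0.05. The mmu-miR-214 assay had the smallest p of the 72 miRNAs, with a level of -12.66, -8.97, -9.10 and -12.85 in ischemia/reperfusion mice 1 to 4, against -7.49, -6.55 and -6.81 in sham mice 1, 3 and 4. The groups did not overlap, but sham mouse 2 had no Ct for it. Its log2 difference was -3.95 ± 1.17 (SE; limma adjusted p = 0.228), and that of the hsa-miR-214 assay, with all 8 mice, was -0.86 ± 0.87. miR-152, also of that list, was at -1.67 ± 1.33. The summed level of the fibroblast and mesenchymal list was -5.59 to -4.73 after ischemia/reperfusion, against -5.95 to -3.37 after sham surgery. That sum counts miR-214 by both of its assays, which lie on different cards, and is no measure of abundance. Of the leukocyte markers, 5 of 6 were detected in at least 1 mouse, beside the same 187 of 750, and miR-142-5p in none. Of the 4 tested, 3 had higher mean levels after ischemia/reperfusion, beside 23 of all 72 tested, and no adjusted p was under 0.05. The log2 differences were 1.15 ± 1.13 for hsa-miR-223, 0.63 ± 1.00 for mmu-miR-223, 0.23 ± 0.66 for miR-155 and -1.62 ± 2.00 for miR-150 (SE). The summed level of this list, which counts miR-223 by both of its assays, was -7.41 to -3.81 after ischemia/reperfusion, against -7.07 to -4.75 after sham surgery.

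The counts of the next 3 lists stand beside 187 of all 750 miRNA assays detected in at least 1 mouse. Erythroid markers were detected in 0 of 3 assays, with no Ct in any mouse. Of the striated muscle markers, 2 of 8 assays were detected, and miR-1, miR-133b, miR-208a, miR-208b and miR-499 in no mouse. Their summed level was -12.91 to -10.94 in the 2 ischemia/reperfusion mice with a value, against -14.00 to -11.00 in the 4 sham mice. Of the epithelial and tubule markers, 2 of 10 assays, miR-192 and miR-194, were detected in up to 2 sham mice and in no ischemia/reperfusion mouse, and none of the miR-200 family assays was detected in any mouse. Their summed level was -5.78 to -1.47 in the 2 sham mice with a value.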

How the data were processed

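MicroRNAs were measured by real-time PCR on a 7900HT Fast system with FAM-labelled probes in RNA isolated with a mirVana kit, per the labels' protocols. The authors deposited threshold cycles (Ct) and delta Ct values, treated here as a score on a cycle scale, and fold changes, a ratio computed as 2 raised to the difference between the group means of delta Ct, per the file headers. The deposited delta Ct score was the Ct minus 1 reference value per sample and card, within 7.11e-15 cycles. The reference RNA, instrument software and card type were not given in the sources used here. In 13 wells of the whole table the delta Ct was deposited without a Ct, and these were left out.

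The 757 distinct assays (750 for miRNAs, 7 controls) fall into 2 catalogue series, taken as 2 cards of 375 miRNA assays each. Wells not detected were missing, and repeated wells were averaged. limma 3.58.1 (lmFit and eBayes, R 4.3.3) was run two-sided on minus delta Ct of all tested miRNAs, with Benjamini-Hochberg adjustment at 0.05. It was first run on simulated data with normally distributed errors, as a check of the code and not of the miR-145 result. Tested miRNAs had to be detected in at least 3 mice of each group. Fisher's exact test was used for detection and exact permutation tests for single values (scipy 1.17.1). The members, lists and tests were chosen with earlier results of these data known. Named miRNAs were the members, the passenger strand assays, the 5 miRNAs most correlated with miR-145 and listed miRNAs. Values were given for up to 4 of each list, those with the smallest limma p, and for miR-31 as well. miR-126-3p, miR-126-5p, miR-199a-3p and miR-24 as partners of miR-145 within mice were added after their values were seen, as were the other-reference values without sham mouse 2. The alternatives covered the reference, the detection limit, the treatment of missing values, no moderation, an exact test, a block by mouse number and leaving out each mouse. Wells per value were not stated, and the precision is that of the spread among mice.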

Additional observations from a re-analysis of the deposited data

Results flagged for a closer look

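In groups of 4 mice, the gap of the most distant mouse to its nearest neighbour was divided by the range of the group, and values above Dixon's 95% critical value were singled out. Chance does so in about 1 in 20 groups, and 20 groups were examined. The hsa-miR-143 level in sham mice gave 0.868, because sham mouse 3, at -14.96, lay below the other sham mice, between -13.35 and -13.11. The well behind it was at Ct 35.2, just beyond the detection limit. The miR-199a-3p level in sham mice gave 0.935, because sham mouse 2, at -11.53, lay below the others, between -7.92 and -7.67. The miR-145 level of the sham mice, where the same mouse was the lowest, gave 0.622 and was not singled out.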

How the results depend on the processing

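The miR-145 difference stayed below 0 and short of the adjusted threshold under each of the references, treatments of missing values, tests and left-out mice that could be run, from -3.48 without normalization to -1.44 with the same-card mean. Detection at Ct 32 left miR-145 untested, since 0 of 4 ischemia/reperfusion and 3 of 4 sham mice lay below it, a difference of -75 percentage points in detection (Fisher's exact p = 0.143). Counting any Ct, hsa-miR-143 was detected in all mice of both groups, a difference of 0. With each mouse left out, its log2 difference lay between -0.87 and -0.018. The count of miRNAs past the adjusted threshold was 0 of 72 by limma and 0 of 72 by the exact permutation test. At an unadjusted p under 0.05 there were 10 by limma and 2 by the exact permutation test. The limma count past the adjusted threshold was 1 (hsa-miR-421, of 98 miRNAs) with any Ct counted. It was also 1 (hsa-miR-421, of 114) with undetected values at Ct 35 or with undetermined wells set to Ct 40. With each mouse left out it was between 0 and 1, the 1 being miR-199a-3p without sham mouse 2, its lowest sham value. The hsa-miR-143 minus miR-145 difference was 4.89 below Ct 35, from 1 ischemia/reperfusion and 2 sham mice, 1.79 with any Ct counted and 2.46 with undetected values at Ct 35 (exact permutation p = 0.2 and 0.114). These values rest on different numbers of mice. With mouse number as a replicate block, the miR-145 log2 difference was -2.09 ± 0.99 (SE; limma adjusted p = 0.397), and the hsa-miR-143 minus miR-145 difference was 1.79 (exact paired permutation p = 0.25). Same-numbered mice did not deviate together (correlations -0.38, -0.15, 0.020 and -0.25), so the numbers were not taken as pairs. For mmu-miR-143 no difference was computed under any setting, since it had no Ct in ischemia/reperfusion mice. Late Ct values limit what miR-143 can show.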
